A study of Caenorhabditis elegans with 2 samples.

Results

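The 258 microRNA genes of the C. elegans nuclear genome were examined for occupancy by SNPC-4 in embryos. They are the nuclear genes that the RefSeq annotation of WBcel235 (the assembly of the ce11 build) types as miRNA, out of 46890 nuclear genes, leaving out mir-8196.1 and mir-8196.2. The type and the names alone define the set, but the pair left out has the strongest regions of all microRNA genes. The gene mir-8196.1 had a signal (the authors' value per region, explained below) of 886 in the pooled list, 455 in replicate 1 and 438 in replicate 2, and mir-8196.2 had 363, 151 and 207 in the same order, against at most 48.3 in the pooled list at the 258 genes. Of the 258 genes, 65 had a candidate SNPC-4 region of the pooled libraries within 200 bp, 23 had one in the pooled list and in both replicate lists, and 4 lay beside a pooled region of the strongest set, defined below by rank. Those 4 were mir-52, mir-51, mir-53 and mir-8192, and the first 3 of them carry the same seed. With the pair the counts over 260 genes were 25 in all 3 lists and 6 in the strongest set.

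MicroRNAs are short RNAs that pair with messenger RNAs and lower their translation or stability. Their primary transcripts are made mostly by RNA polymerase II, folded into hairpins, trimmed by Drosha and its partner Pasha in the nucleus and by Dicer in the cytoplasm, and loaded into Argonaute proteins. The seed near the 5′ end of the mature strand decides most of the pairing, so genes that share a seed form a family. SNPC-4 belongs to the DNA-binding complex SNAPc, which activates the promoters of spliced leader (SL) RNA and small nuclear RNA (snRNA) genes, and in worms it is also known for its role at piRNA loci.

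The assay was ChIP-seq, the sequencing of DNA that an antibody pulls down with a chromatin protein. The material was whole mixed-stage embryos, males and females pooled, of strain OP179, whose genotype is unc-119(ed3) III; wgIs179, where wgIs179 is an insertion of eGFP-tagged snpc-4. The antibody is labelled snpc-4, with no word on whether it binds the tag. Replicates 1 and 2, with 1 library each, made up 1 group, so no condition could be set against another, and a control experiment named in the labels was not analysed here. Whole embryos mix cell types, so a weak region in all cells and a strong one in few cells cannot be told apart.

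The family with the strongest regions is shown first, because its genes share a mature seed while lying at 3 places on chromosomes IV and X. The mature strands below were read from the RefSeq genome and annotation, 5′ to 3′, with the seed, bases 2 to 8, in capitals. The first 6 are the mir-51 family, with the seed ACCCGUA. The last 3 are mir-35, which heads the largest seed family, let-7 and lin-4, the founding microRNAs of developmental timing.
mir-51: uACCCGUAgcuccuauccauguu
mir-52: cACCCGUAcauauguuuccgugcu
mir-53: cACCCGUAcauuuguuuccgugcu
mir-54: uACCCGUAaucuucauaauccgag
mir-55: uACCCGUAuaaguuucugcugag
mir-56: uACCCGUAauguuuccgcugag
mir-35: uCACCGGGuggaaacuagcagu
let-7: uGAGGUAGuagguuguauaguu
lin-4: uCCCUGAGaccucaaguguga

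The DNA under the pooled summits of 6 regions is printed next, to show the 4 genes of the strongest set, the site upstream of mir-54 and mir-35, the head of its cluster. Each window is 101 bases from WBcel235, on the strand of the microRNA gene, and the summit is its central base. Capitals mark a match to TATAAA, or, in mir-51, to the B box, an internal promoter element of tRNA genes, each searched on both strands. The windows cover IV:14033815-14033915 (plus strand) for mir-52, IV:11026135-11026235 (minus) for mir-51, IV:11027679-11027779 (minus) for mir-53, II:6943901-6944001 (plus) for mir-8192, II:11537422-11537522 (plus) for mir-35 and X:13145350-13145450 (minus) for the region upstream of mir-54.
mir-52: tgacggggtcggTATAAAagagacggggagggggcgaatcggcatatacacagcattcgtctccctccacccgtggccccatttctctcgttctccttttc
mir-51: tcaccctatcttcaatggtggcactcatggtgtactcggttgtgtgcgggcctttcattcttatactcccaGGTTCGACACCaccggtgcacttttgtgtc
mir-53: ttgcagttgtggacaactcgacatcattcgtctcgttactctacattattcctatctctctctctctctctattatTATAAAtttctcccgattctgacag
mir-8192: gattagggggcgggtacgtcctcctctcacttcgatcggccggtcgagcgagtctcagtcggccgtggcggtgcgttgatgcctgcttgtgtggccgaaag
mir-35: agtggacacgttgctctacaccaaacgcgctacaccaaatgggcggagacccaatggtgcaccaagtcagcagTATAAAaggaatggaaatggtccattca
mir-54 upstream region: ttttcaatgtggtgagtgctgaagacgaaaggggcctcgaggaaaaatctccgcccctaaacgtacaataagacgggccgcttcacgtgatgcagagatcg

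The values are the authors' signal of each region, which ranks regions within a list but has no stated scale. Signals of different lists are printed side by side, and correlated, as a description only. Their levels compare between lists by rank alone. Each list held 30000 candidate regions, peaks and background alike, with a median signal of 9.63 in the pooled list, 5.46 in replicate 1 and 5.9 in replicate 2. The number of reads behind them is unknown. A microRNA gene was given the strongest region whose summit lay within 200 bp of it. The shortened peak list that passed the authors' reproducibility threshold held 213 peaks on ce11, all on chromosome I, and so bears on the 33 microRNA genes there alone. For the whole genome a strongest set was used, the top pooled regions by rank, as many as the authors' thresholded list on the older build ce10 holds. The last region of that set had a signal of 31.3. The intervals below are 95% Wilson intervals and cover counting error only.

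A pooled region was found at 65 of 258 microRNA genes, or 25.2% (20.3 to 30.8%). The same window held a pooled region at 22.6% of the 5′ ends of 19971 protein-coding genes and in 14.2% of 202569 genome stretches of 495 bp, the length of a microRNA gene of median size (95 bp) with its flanks. All 46632 other nuclear genes, many of them much longer, had one in 34.2% of cases. The microRNA share was thus close to that of protein-coding 5′ ends.

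Regions present in the pooled list and in both replicates were found at 23 microRNA genes, 8.91% (6.01 to 13.0%). The background was 7.78% of protein-coding 5′ ends, 3.56% of genome stretches and 18.5% of all other nuclear genes. The interval held the value of the 5′ ends and lay above that of the genome stretches. Among the rest, 23 genes had a region in the pooled list and replicate 1 alone, 12 in the pooled list and replicate 2 alone, and 7 in the pooled list alone. Another 36 had one in a single replicate list, 23 in replicate 1 and 13 in replicate 2. Both replicates but not the pooled list marked 1 gene, mir-2207, and 156 genes, 60.5%, had no region in any list.

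A region of the strongest set lay at 4 genes (1.55%, 0.605 to 3.92%), a share near the 1.47% of protein-coding 5′ ends, above the 0.526% of genome stretches and below the 2.44% of all other nuclear genes. By the deposited q-value, 8 of 258 microRNA genes (3.1%, 1.58 to 6.0%) had a pooled region with q under 0.05, against 2.79% of protein-coding 5′ ends and 3.84% of all other nuclear genes. Their −log10 q had a median of 0.14 over the 65 genes, against 0.0786 over all candidate regions, so most microRNA regions were weak by the authors' own measure.

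Genes of snRNA and SL RNA, the classes SNAPc is known for, stood far higher by the same count, and tRNA and snoRNA genes stood higher too. Regions in all 3 lists lay at 66.7% of 99 snRNA genes, 56.7% of 30 SL RNA genes, 33.2% of 612 tRNA genes and 30.6% of 346 snoRNA genes, and a region of the strongest set lay at 60.6%, 53.3%, 10.1% and 17.3% of them. The piRNA genes stood lower than the microRNA genes, with 1.99% of 15363 in all 3 lists. The median pooled signal was 11.4 over the 65 microRNA genes with a region, 10.8 over all other nuclear genes with one and 119 over the snRNA genes with one. Over all candidates, where no best region per gene is picked, it was 9.63.

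**Figure D1:**
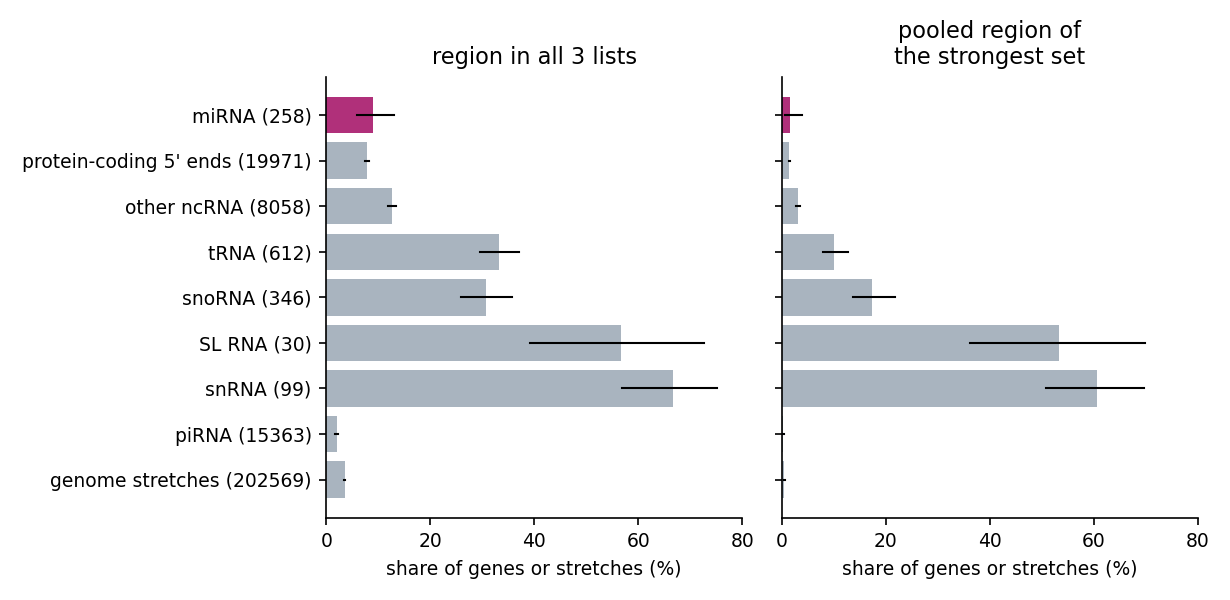
Share of genes of each class, in percent, with a region in all 3 lists (left) and with a pooled region of the strongest set (right) within 200 bp; the number of genes stands in brackets and lines are 95% Wilson intervals. The microRNA bar, at 8.91% and 1.55%, lies beside that of protein-coding 5′ ends and far below those of snRNA and SL RNA genes.

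The mir-51 family gave the 3 strongest pooled regions within 200 bp of the 258 genes. The order differed by replicate: mir-8192 (20.4) and mir-8193 (14.9) stood above mir-53 (14) in replicate 1, and in replicate 2 mir-5550 (rank 506) stood just above mir-51 (rank 508) and mir-5595 (21.1) above mir-53 (20.7). Members of the family act redundantly in development, and losing them all is known to kill embryos. The gene mir-52 (IV:14034008-14034107, plus strand) had a signal of 48.3 in the pooled list, 28 in replicate 1 and 21.6 in replicate 2, at ranks 509, 448 and 666. Its 3 summits lay 143, 166 and 126 bp upstream of the 5′ end of the hairpin, in that order of lists. The region is intergenic with respect to protein-coding genes, and 3 RefSeq genes of other non-coding RNA lie within 200 bp of the summit.

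The genes mir-51 and mir-53 lie next to each other on the minus strand of chromosome IV. The gene mir-51 (IV:11026013-11026112) had 44.8 in the pooled list, 34.2 in replicate 1 and 24.9 in replicate 2, at ranks 573, 304 and 508. Its pooled and replicate 1 summits lay 73 and 75 bp upstream, while that of replicate 2 lay 109 bp downstream of the 5′ end, past the hairpin. The non-coding RNA gene F36H1.17 lies within 200 bp of the pooled summit. The gene mir-53 (IV:11027593-11027691) had 38.2 in the pooled list, 14 in replicate 1 and 20.7 in replicate 2, at ranks 773, 1612 and 721. Its summits were at 38 bp upstream, 58 bp inside and 145 bp upstream. Each replicate therefore marked all 3 genes, with mir-53 at rank 1612 in replicate 1.

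The other 3 members, mir-54, mir-55 and mir-56, form a row on the minus strand of chromosome X, in an intron of F09A5.3 that runs the other way. None had a pooled region within 200 bp. A single pooled region of signal 38.2, rank 771, lay 306 bp upstream of mir-54, 476 bp upstream of mir-55 and 613 bp upstream of mir-56. The matching regions had a signal of 23.4 in replicate 1, rank 610, and 18.3 in replicate 2, rank 911, with summits 88 and 73 bp from the pooled one. The non-coding RNA gene F09A5.11 lies within 200 bp of it. A weaker region of replicate 2 alone, signal 8.92, lay within 200 bp of mir-54 and mir-55. All 6 members thus had a region of the strongest set within 2000 bp upstream, at 4 sites in all. Of the 16 seeds shared by 3 or more genes, ACCCGUA was the 1 for which every gene had such a region. The 2000 bp window was added after the data had been seen, the 6 genes share sites, and no test was made.

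**Figure D2:**
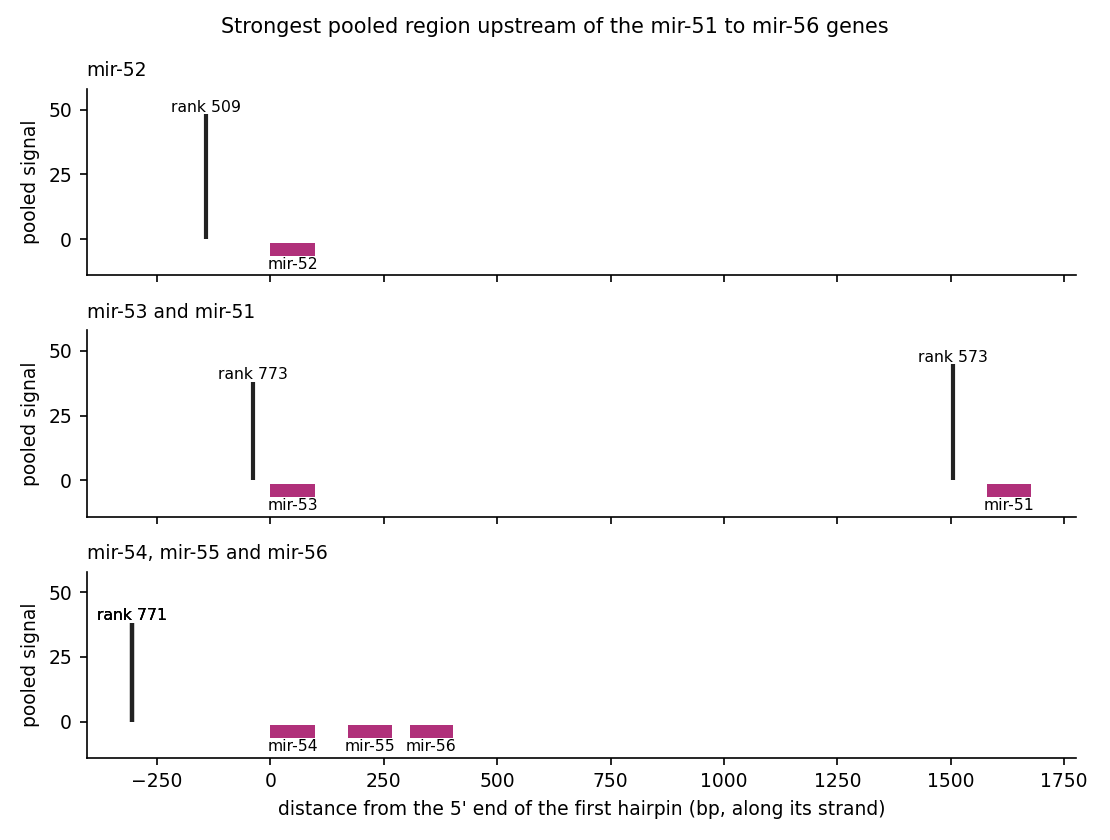
Position of the strongest pooled region within 2000 bp upstream of each gene of the mir-51 family (vertical lines, height is the pooled signal, rank above) and of the annotated genes (bars), by distance in bp from the 5′ end of the first gene of each row. Summits lie 143 bp upstream of mir-52, 38 bp upstream of mir-53, 73 bp upstream of mir-51 and 306 bp upstream of mir-54.

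The fourth gene among the strongest was mir-8192 (II:6943885-6944021, plus strand), in an intron of flcn-1, the worm folliculin gene, on the same strand. It had 37.3 in the pooled list, 20.4 in replicate 1 and 17.7 in replicate 2, at ranks 813, 782 and 978. The pooled and replicate 2 summits lay 66 and 71 bp inside the hairpin, and that of replicate 1 lay 120 bp upstream. The next gene by signal, mir-8193, fell outside the strongest set at rank 1275 with 29.0, and had 14.9 and 11.3 in replicates 1 and 2. It lies in an intron of dmsr-2, a peptide receptor gene, and was the single one of the 33 microRNA genes of its chromosome with a peak in the thresholded list, at 31.5.

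The replicates did not rank the 23 genes alike throughout. Across these genes Spearman's rho between the replicates was 0.62 and Pearson's r of log2 signal was 0.6, as a description of 23 genes that share the same 2 libraries and 22 pooled regions. The gene mir-5550, antisense in an intron of the kinase gene kgb-1, had 24.9 in replicate 2, rank 506, and 4.03 in replicate 1, rank 24886, for a pooled 27.3. At mir-35 the signal was 7.44 in replicate 1, rank 7414, and 13.3 in replicate 2, rank 1764. At mir-5549, by contrast, it was 13.7 in replicate 1, rank 1684, and 8.84 in replicate 2, rank 5415. All 3 summits there lay 56 or 57 bp upstream. The replicate summits lay a median of 88 bp apart and at most 253 bp, and 19 of the 23 genes had both within 200 bp of the pooled summit.

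**Figure D3:**
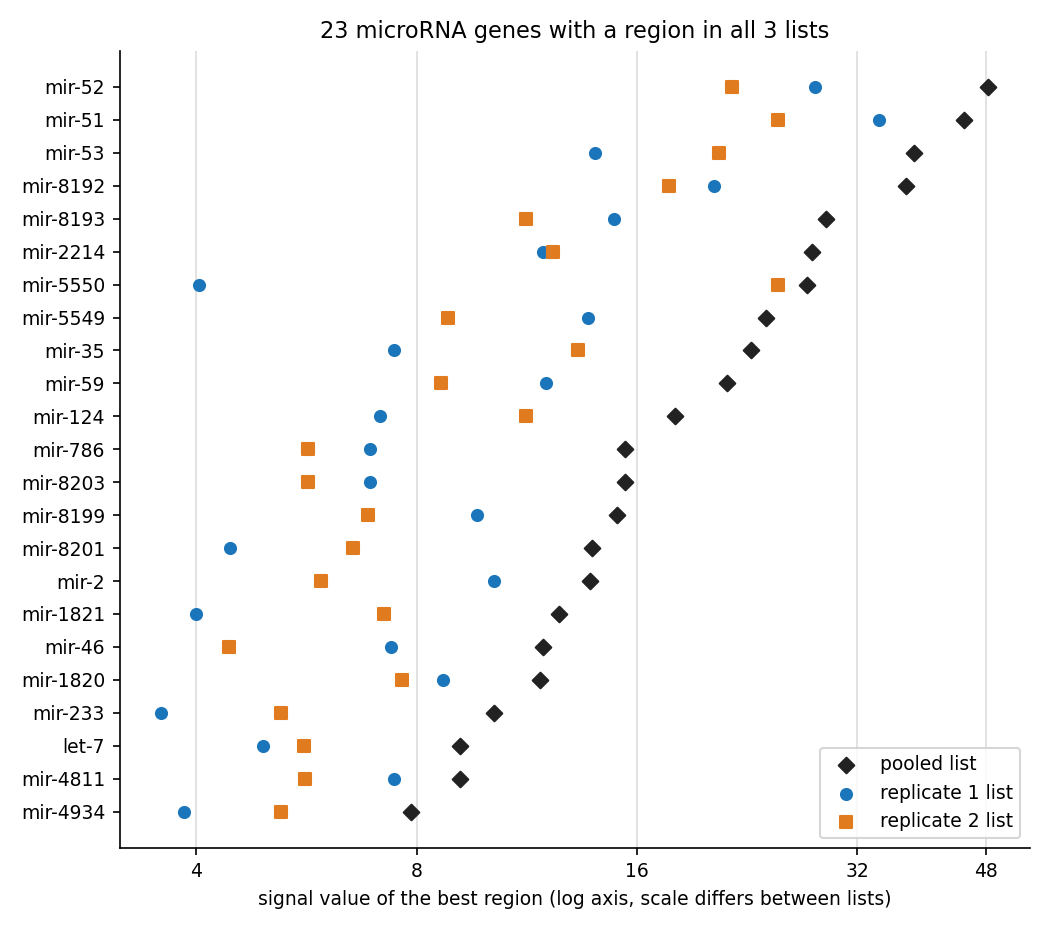
Signal of the strongest region within 200 bp, on a log axis, for the 23 microRNA genes with a region in all 3 lists, from the highest pooled signal (top) down; diamonds are the pooled list, circles replicate 1 and squares replicate 2. The mir-51 family genes mir-52, mir-51 and mir-53 head the order. The scale differs between lists, and mir-5550 has the widest gap between the replicates, 4.03 (rank 24886) against 24.9 (rank 506).

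Among developmental microRNAs the mir-35 family, which acts in early embryos, had 8 genes, 5 with a pooled region and 1 with a region in all 3 lists. That gene, mir-35 (II:11537608-11537704, plus strand), is the first hairpin of a row of 7, antisense in an intron of Y62F5A.9. Its pooled region, signal 22.9 and rank 1956, lay 136 bp upstream, and the replicate summits lay 24 bp inside and 106 bp upstream. The hairpins mir-36, mir-37 and mir-38 shared a weak pooled region of 7.28, rank 25967, with none in replicate 2. The last 3 of the row, mir-39, mir-40 and mir-41, had no region in any list. The eighth member, mir-42, had 16.6 in the pooled list and 12.7 in replicate 1, with none in replicate 2.

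The let-7 gene had a region in all 3 lists, but a weak one. Its signals were 9.18 in the pooled list, 4.93 in replicate 1 and 5.61 in replicate 2, the pooled one under the median of all candidates. RefSeq annotates let-7 as a gene of 1732 bp, and the pooled summit lay 420 bp inside it. The mature let-7 strand lies at X:14744234-14744255 on the minus strand, so this summit, at X:14744901, is upstream of it. A stronger region, 40.8 at rank 673, lay 1842 bp upstream of the annotated 5′ end, with the start of wshc-2 within 200 bp. It had 22.6 in replicate 1 and 17.2 in replicate 2. The let-7 relatives mir-48, mir-84 and mir-241, which time larval divisions, had no region in any list. The gene lin-4, the first microRNA found, had 8 in the pooled list and 8.75 in replicate 1, with none in replicate 2. Its pooled region, at rank 21964, was also under the median of all candidates.

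Other well-studied microRNAs varied. Of the 11 named next, 7 had no region in any list, near the 60.5% of all 258. The neuronal gene mir-124, in an intron of the channel gene trpa-1, had 18.0 in the pooled list, 7.14 in replicate 1 and 11.3 in replicate 2. No list held a region at the muscle gene mir-1, at lsy-6, which sets the asymmetry of a taste neuron pair, or at mir-71, mir-34 and mir-61. In the mir-58 family, mir-58.1 and mir-81 had none, mir-80 had 14.6 in the pooled list and 11.7 in replicate 1, and mir-82 had 8.56 in replicate 1 alone. The glial gene mir-228 had 6.75 in the pooled list, close to the lowest signal listed there, 6.66, and 6.80 in replicate 1. None of these but mir-124 had a region in both replicates.

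The remaining genes with regions in all 3 lists had pooled signals between 7.85 (mir-4934) and 27.7 (mir-2214). The gene mir-2214, in an intron of B0361.11, had 11.9 in replicate 1 and 12.3 in replicate 2, with summits 51 to 71 bp upstream in the 3 lists. The gene mir-59 had 21.2 in the pooled list, 12 in replicate 1 and 8.65 in replicate 2, all 3 summits lying within the hairpin. Pooled signals of 15 at mir-8199, 13.9 at mir-8201, 13.8 at mir-2, 12.5 at mir-1821, 11.9 at mir-46 and 11.8 at mir-1820 stood above the candidate median of 9.63. Below or near it were mir-233 at 10.2 and mir-4811 at 9.16. Replicate 1 put mir-1821 at 4 and mir-233 at 3.58, close to the lowest signal it lists, 3.5, and replicate 2 put them at 7.22 and 5.23. The cluster neighbours differed from these, mir-2213 with 7.65 in the pooled list alone and mir-792 with no region. On chromosome X, mir-786 and mir-8203, which overlap on opposite strands, shared a region of 15.4 with the neighbouring mir-240, whose nearest summit lay 183 bp away. Just outside the distance lay mir-8189 at 208 bp and mir-5595 at 216 bp. The gene mir-5595, antisense in an intron of nurf-1, had a replicate 2 region of 21.1, rank 693, within 200 bp.

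Pooled summits lay upstream of the annotated gene more often than inside or downstream of it. For let-7 (1732 bp) and mir-8199 (778 bp) that gene is far longer than the mature strands. At both, all 3 summits lay more than 200 bp from those strands, so these genes count through the annotation alone. Of the 65 genes with a pooled region, 36 had the summit upstream of the 5′ end, 15 inside the gene and 14 downstream. Of the 23 with regions in all 3 lists, the counts were 13, 7 and 3, so 56.5% were upstream. The flanks are of equal length on both sides, and the lists alone do not show where the microRNA transcripts start. The same split was not made for other genes, so it is not shown to be particular to microRNA genes.

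**Figure D4:**
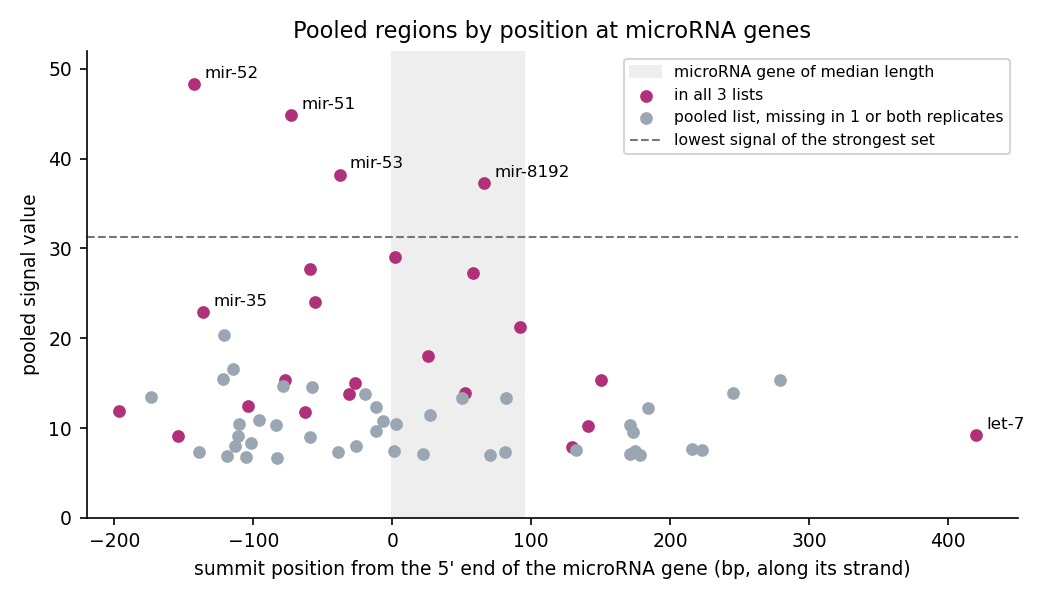
Pooled signal against the position of the pooled summit relative to the 5′ end of the microRNA gene, in bp along its strand, for the 65 genes with a pooled region; negative is upstream, the grey band is a gene of median length and the dashed line is the signal of the last region of the strongest set. The 3 mir-51 family genes above the line have summits upstream, and mir-8192 has its own inside.

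The share with a region in all 3 lists was similar across genomic settings, within wide intervals. It was 10.9% (5.4 to 20.9%) of 64 genes in an intron of a protein-coding gene on the same strand and 7.14% (1.98 to 22.6%) of 28 in an intron on the opposite strand. It was 8.44% (5 to 13.9%) of 154 intergenic genes and 8.33% (1.49 to 35.4%) of 12 that overlap an exon. These intervals overlap throughout. Of the 59 host genes of the same-strand introns, 6 had a region at a transcription start in all 3 lists. Over all protein-coding genes with an annotated start that share was 7.08%. Of the 6 microRNA genes in these hosts, 1 had a region of its own in all 3 lists, too few to set against the shares above. Genes in clusters of neighbours within 10 kb had a share of 8.08% over 99 genes, against 9.43% over 159 single genes. By chromosome the share was highest on IV, with 9 of 50 genes (18%, 9.77 to 30.8%), against 7.47% of protein-coding 5′ ends there. It was lowest on V, with 1 of 28 (3.57%, 0.633 to 17.7%), against 5.63% of 5′ ends there. The chromosomes were singled out after their values were seen, and 3 of the 9 genes on IV are of the mir-51 family.

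Other annotated genes lay near some of these regions. Within 200 bp of the summit, 5 of the 23 genes had a gene of other non-coding RNA, 2 had a protein-coding start, and 16 had neither. No tRNA, snRNA, SL RNA, rRNA, snoRNA or piRNA gene lay that near any of the 23. Of the 65 with a pooled region, 19 had a gene of other non-coding RNA and 7 a protein-coding start. Their part in the signal was not tested. The same counts were not made over all candidate regions, so they show no trait of microRNA regions.

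Within 2000 bp upstream, 15 of 258 microRNA genes (5.81%, 3.55 to 9.37%) had a region of the strongest set, against 4.23% of protein-coding 5′ ends. These were 12 distinct regions. The strongest, at 64.0 and rank 327, lay 844 bp upstream of mir-354 with the start of ekl-4 within 200 bp. A region of 60.6, rank 351, lay 1406 bp upstream of mir-8188, with 33.3 in replicate 1 and 23.0 in replicate 2 and no annotated start or small RNA gene within 200 bp. The genes mir-42 and mir-43 shared a region of 32.6, rank 1038, 1810 and 1909 bp upstream, with the non-coding RNA gene linc-47 within 200 bp of it.

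Each sequence element searched was in few of the microRNA regions except TATAAA, and none of these shares was tested. Within 100 bp of the summit, CTGTTTCA, the core of the upstream element of piRNA genes, was in 0 of 59 distinct regions at microRNA genes, against 1.87% of 29977 nuclear candidates. The 7-mer GCGGAAC was picked here as the one most over-represented 30 to 90 bp upstream of snRNA genes. Its share of 28.3% of those genes thus follows from the choice. It was in 1 of the 59, at mir-2219, against 2.39% of all candidates and 22.4% of the strongest, which include regions at snRNA genes. The B box was in 1, at mir-51, against 0.711% of candidates, and the A box, the other internal element of tRNA genes, in 0, against 0.287%. The match at mir-51, shown above as GGTTCGACACC, lay 42 bp upstream of the 5′ end and 21 bp from the summit, with the nearest tRNA gene 205401 bp away. TATAAA was in 14 of the 59, or 23.7%, against 22.4% of candidates. Over the 200 bp upstream of all 258 genes the A box was found at 4 (mir-61, mir-247, mir-1829.2 and mir-4812), or 1.55%, against 0.0951% of protein-coding genes, and none of the 4 had a region in all 3 lists. CTGTTTCA was found there at 2.71% of microRNA genes against 1.6% of protein-coding genes, the B box at 0.388% against 0.0951%, GCGGAAC at 1.16% against 0.921% and TATAAA at 20.2% against 30.4%. The regions had a median GC content of 40.8%, against 35.8% over all candidates and 47.3% over the strongest. No match says only that these letters are not in the window.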

How the data were processed

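SNPC-4 ChIP-seq peak lists of 2 libraries were used. Per the labels, the authors' lists hold peaks and background as input to IDR, derived from alignments of library and control per the deposited notes; the sources used here do not give the aligner, caller, versions or threshold. Regions carry a deposited signal value, a deposited −log10 q-value and the deposited summit offset, an other number in bp, which placed the summit. Lists cut at 30000 regions hold weak ones by construction. Coordinates are ce11, and every region ended within the WBcel235 chromosome lengths. The ce10 candidates were not used; the thresholded ce10 list gave only its length. The Ensembl annotation gave all 258 genes the same coordinates.

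Each gene received its strongest region within 200 bp, and shares were given with Wilson intervals. No test was run: there is 1 group. The matching was checked on simulated summits. The members and lists were chosen with earlier results of these data known. Genes named were the 20 with the highest pooled signal in all 3 lists, those among the strongest regions of any list, a fixed set of known families, and cluster neighbours; mir-2207, mir-2219, mir-354, mir-8188, mir-43, the edge cases and the rows without regions were named after their values were seen. Python 3.11.15, pandas 2.3.3, numpy 2.4.6, scipy 1.17.1 and matplotlib 3.10.9 were used.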

Additional observations from a re-analysis of the deposited data

How the results depend on the processing

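Region counts turned on the distance and the list. The 23 genes with a region in all 3 lists became 15 at 100 bp, 62 at 500 bp, 65 with the pooled list alone, 6 with the 5000 strongest regions of each list, 8 with upstream summits only, 46 in the pooled and replicate 1 lists, 35 in the pooled and replicate 2 lists, and 49 to 70 in the list of a single replicate without the pooled list. The 4 genes among the strongest became 10 at 500 bp, 1 with the upper part of that set, 18 with the 5000 strongest, 1 by overlap with thresholded ce11 peaks and 8 by q under 0.05. The median signal of 11.4 became 10.9 at 100 bp, 11.9 at 500 bp, 11.8 with mir-8196.1 and mir-8196.2 or with shared regions counted once, 10.4 with the nearest region and 6.49 to 7.33 in the single replicate lists, whose scale differs. At 500 bp the shares by location were 23.4% (same-strand intron), 39.3% (antisense intron) and 21.4% (intergenic), the regions with a small RNA gene or start nearby went to 14 against 7, and biogenesis genes with a region to 6 against 2. No background share is given here for any count at 500 bp, so these values show no trait of a setting. Neighbouring genes such as mir-54 and mir-55, both antisense, share a region at that distance. The 15 genes with a strong region upstream became 8 within 1000 bp, TATAAA regions 8 within 50 bp, and clusters 21 at 1 kb against 36. The cause was not tested. The other 24 alternatives, all of counts or shares, stayed within 1.5 times the value or within its interval. The listed medians of 10.4 to 11.9 also lay within 1.5 times 11.4. They differed from it by more than 0.364, the spread of the members' median between the replicates, scaled to the pooled list. The 2000 bp window, TATAAA, Ensembl coordinates, the same-site rule, the pairs of lists and the q rule were chosen after seeing the data. No paired analysis was possible because there is 1 group. Unknown read depth, no control library here and 2 libraries limit every value.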

Other observations

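Some genes that make and use microRNAs had regions of their own. Of 14 biogenesis and effector genes, 2 had a region in all 3 lists within 200 bp of a transcription start, where 7.08% of all protein-coding genes with an annotated start did. At pash-1, the worm Pasha gene, the signal was 29.2 in the pooled list, 14.7 in replicate 1 and 10 in replicate 2. At lin-28, an RNA-binding protein gene that restrains let-7 maturation and is itself a microRNA target, it was 18.1, 10.7 and 8.84 in the same order. No list held a region at drsh-1, the Drosha gene, or dcr-1, the Dicer gene. The Argonaute gene alg-1 had one in replicate 2 alone, at 4.84. Of 10 known target genes lin-28 alone had a region in all 3 lists.

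Rows of neighbouring microRNA genes varied. Of the 99 genes in clusters, 23 had a pooled region, against 65 of all 258. Among the rows of 4 or more genes, that of mir-35 to mir-41 had one at 4 of 7 genes and that of mir-42 to mir-45 at 3 of 4. In the first row mir-36, mir-37 and mir-38 shared a region, and in the second mir-43 and mir-44 shared a region of 10.4. Regions in all 3 lists lay at 1 gene of the first row and 0 of the second. The largest, 11 genes on chromosome X from mir-4807 to mir-4921, had no pooled region, and neither had the 5 genes of mir-2208 and mir-2209, the 4 from mir-229 to mir-66, or the 4 from mir-54 to mir-56 with F09A5.15. Single replicate lists held regions at mir-4809, mir-4810.1, mir-2208.2 and mir-229. In the last row mir-54, mir-55 and F09A5.15 shared a replicate 2 region of 8.92.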
